A study of Homo sapiens with 2 samples.

Results

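Untreated control cells that carry the most granule protease RNA were examined here. They were chosen by a measured value, the share of a cell's UMIs that came from ELANE, AZU1 and PRTN3, and the 240 cells in the top 25% of that ranking are called protease-high cells. They were set against the 240 cells in the bottom 25%, called protease-low cells, out of 963 ranked control cells and 1940 barcodes in the series. A UMI is a tag that marks a single captured RNA molecule. A cell was ranked when it had 200 or more genes, at most 20% of its UMIs from mitochondrially encoded (MT-) genes and 4400 or more UMIs.

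The series holds 1 library of cells treated with SP11, which the study describes as an HSP90 inhibitor, at 0.8 µM for 48 h, and 1 library of untreated control cells. Both are labelled MOLT4, an established T-cell acute lymphoblastic leukemia line, with no genetic change named in the labels. With 1 library per condition and cells that are no replicates, no test was possible, and every interval covers counting error only. The same ranking was applied to the SP11 library, where 192 of 769 cells formed its top 25% and 192 its bottom 25%, as a set of cells that the choice of the control members did not use.

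Azurophil granules are the first granules that a developing granulocyte makes. They are filled at the promyelocyte stage, when the cell still divides, with serine proteases and antimicrobial proteins that are packed onto the proteoglycan serglycin. Transcription of the proteases is switched off as the cell matures, and macrophages do not restart it. ELANE encodes neutrophil elastase, PRTN3 encodes proteinase 3, and AZU1 encodes azurocidin, a protease relative without catalytic activity.

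The library label was checked against marker genes. Of 14 T-lineage markers, 12 had 0 UMIs in protease-high and in protease-low cells, among them the receptor genes CD3D, TRBC1 and TRBC2, and the list summed to 1.21 CPM in protease-high and 0.986 CPM in protease-low cells. CPM is the UMIs of a gene per 1000000 UMIs summed over a group of cells. The 7 markers of mature neutrophils summed to 7.98 CPM and 6.11 CPM, and the 10 monocyte or macrophage markers to 30.7 CPM and 28.6 CPM, with MARCO the only measured gene among them. The marker list with the highest sum was that of NK cells, at 231 CPM in protease-high and 205 CPM in protease-low cells, of which NKG7, also a granule membrane protein, gave 230.5 CPM and 203 CPM. Markers of B cells, erythroid cells, megakaryocytes, dendritic cells, epithelium and fibroblasts summed to at most 26.4 CPM in either group. Markers of mast cells, basophils and eosinophils reached 67.7 CPM and 88.7 CPM, mostly from TPSAB1, and endothelial markers 45.7 CPM and 39.0 CPM, mostly from PECAM1. The T-lineage markers thus did not show the lineage that the MOLT4 label implies. The cells are therefore called by their ranking genes and not by a cell type. The files share 114 barcodes. The control matrix holds 19512669 UMIs in 1076 barcodes, and its ranked cells had between 4507 and 77922 UMIs. Every cluster carried the ranking genes, and the amount of free RNA in the counts was therefore not measured.

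Sequences upstream of the start sites are given for ranking genes and for a gene from each end of the comparison, since these genes moved together or against each other across cells. Each line is the 250 bases before the RefSeq start on GRCh38.p14, read in the direction of the gene, and capitals mark motif matches.
PRTN3: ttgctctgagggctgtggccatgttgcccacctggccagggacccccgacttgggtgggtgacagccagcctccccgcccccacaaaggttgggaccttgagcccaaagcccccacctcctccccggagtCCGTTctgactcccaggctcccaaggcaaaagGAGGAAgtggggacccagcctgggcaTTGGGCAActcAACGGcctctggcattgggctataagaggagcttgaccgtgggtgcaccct
AZU1: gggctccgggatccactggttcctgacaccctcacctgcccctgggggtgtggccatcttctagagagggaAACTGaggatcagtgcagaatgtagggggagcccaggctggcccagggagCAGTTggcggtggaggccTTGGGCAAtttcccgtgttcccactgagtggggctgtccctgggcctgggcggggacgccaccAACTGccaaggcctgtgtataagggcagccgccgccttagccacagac
CTSG: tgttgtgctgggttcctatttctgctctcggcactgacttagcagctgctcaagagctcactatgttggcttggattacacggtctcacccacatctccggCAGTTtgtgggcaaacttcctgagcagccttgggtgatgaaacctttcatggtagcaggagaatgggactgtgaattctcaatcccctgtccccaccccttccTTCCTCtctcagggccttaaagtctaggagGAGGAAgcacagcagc
CXCL8: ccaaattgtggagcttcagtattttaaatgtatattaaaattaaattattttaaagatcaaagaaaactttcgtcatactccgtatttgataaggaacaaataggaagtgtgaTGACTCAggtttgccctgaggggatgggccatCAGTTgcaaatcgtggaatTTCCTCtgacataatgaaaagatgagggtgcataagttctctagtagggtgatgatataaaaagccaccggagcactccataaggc
The windows lie at chr19:840749-840998 on the plus strand for PRTN3, chr19:827587-827836 on the plus strand for AZU1, chr14:24576251-24576500 on the minus strand for CTSG and chr4:73740319-73740568 on the plus strand for CXCL8. The motifs searched on both strands were AACNG (MYB), GAGGAA (PU.1), TTGCNNAA (C/EBP), TGTGGT (RUNX) and TGANTCA (AP-1), and no matches overlapped. PRTN3 and AZU1 held the same C/EBP match, TTGGGCAA, on the reverse strand, and MYB letters occurred 2 times in PRTN3, 3 times in AZU1 and once each in CTSG and CXCL8. PU.1 letters occurred once in PRTN3, 2 times in CTSG and once in CXCL8, and only CXCL8 held the AP-1 letters. Among 27305 promoters of the same length, 70.6% held the MYB letters, 23.4% the PU.1 letters, 9.13% the C/EBP letters, 10.9% the RUNX letters and 6.60% the AP-1 letters. These matches describe letters in a window and not binding.

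The ranking genes followed a continuous range of levels. The protease share ran between 0.238% and 0.721% in protease-high cells with a median of 0.301%, and between 0 and 0.118% in protease-low cells with a median of 0.0868%. The last protease-high cell had 45 of 18887 UMIs (0.238%, exact interval 0.174% to 0.319%), and the next cell below it had 87 of 36517 UMIs, also 0.238%. The first protease-low cell had 26 of 22011 UMIs and the cell above it 41 of 34664 UMIs. In all, 106 cells lay within 0.02 percentage points of the upper threshold, 42 of them protease-high, and 144 protease-high cells had a 95% interval that held the threshold itself. No protease-high cell had an interval that reached the share of any protease-low cell. The histogram of shares shows a single broad peak with a tail to the right and no gap at either threshold.

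**Figure D1:**
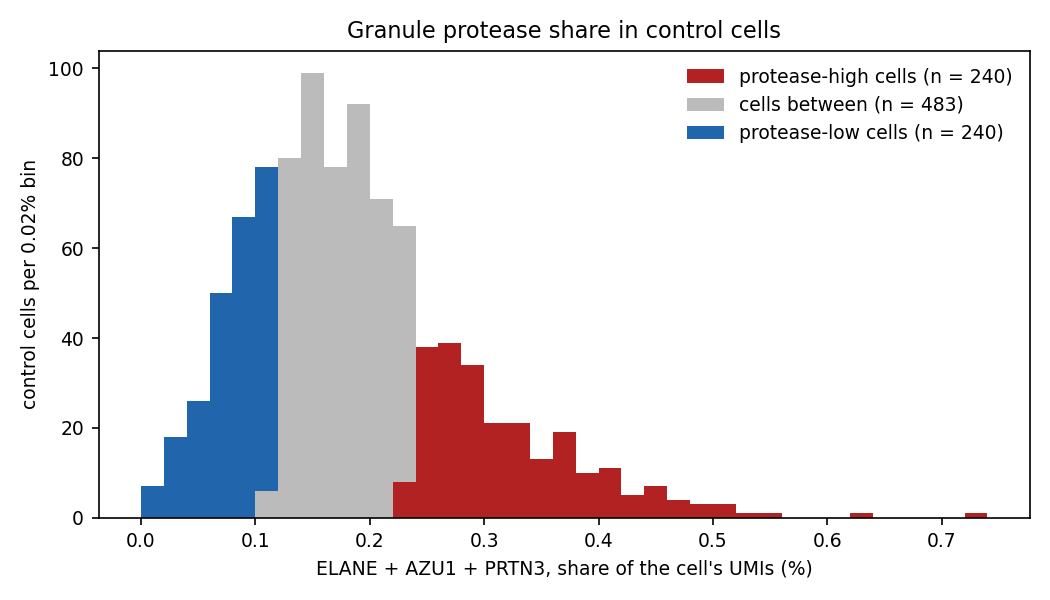
Number of control cells by the share of their UMIs from ELANE, AZU1 and PRTN3, in bins of 0.02%, with protease-high cells, cells between and protease-low cells stacked in separate colours. The shares form a single peak, and the thresholds of 0.238% and 0.118% cut its flanks.

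The 3 ranking genes define the members, so their values are a description. ELANE had a median of 31 UMIs per protease-high cell (3 to 115) and 9 UMIs per protease-low cell (0 to 31), which gave 1993 CPM and 478 CPM. AZU1 had a median of 11 UMIs (0 to 38) in protease-high and 4.5 UMIs (0 to 15) in protease-low cells, or 708 CPM and 234 CPM. PRTN3 had a median of 7 UMIs (0 to 32) in protease-high and 2 UMIs (0 to 7) in protease-low cells, or 501 CPM and 96.0 CPM. The ranges of the groups overlapped for each gene taken alone. ELANE was present even at the low end, with a UMI in 235 of 240 protease-low cells.

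Ranking the cells without a gene and then reading that gene gave a measure that the ranking did not use, in the same cells. Ranked by AZU1 and PRTN3 alone, ELANE lay at 1599 CPM in the top and 684 CPM in the bottom 25%, a log2 ratio of 1.23 (95% counting interval 1.17 to 1.28). AZU1 gave 1.04 (0.95 to 1.13) when left out, and PRTN3 gave 1.91 (1.77 to 2.04). In the SP11 library the left-out ratios were 1.15 for ELANE, 0.76 for AZU1 and 2.09 for PRTN3. Each left-out protease was thus higher in the top than in the bottom 25% in each library. Over the 963 control cells, Spearman's rho of the per-cell shares was 0.53 for ELANE with PRTN3, 0.39 for AZU1 with PRTN3 and 0.37 for ELANE with AZU1 (Pearson's r 0.52, 0.37 and 0.28). These points share a library and a total, and the protease share itself had a rho of -0.20 with the total UMIs of a cell. Over the 769 SP11 cells, rho was 0.39 for ELANE with PRTN3. The pairs with AZU1 were weak there, at 0.14 for AZU1 with PRTN3 and 0.16 for ELANE with AZU1.

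The variance of ELANE counts between cells was 7.64 times that of pure counting, rank 18 of 1847 genes at 100 CPM or more. AZU1 reached 3.89 times (rank 65) and PRTN3 3.59 times (rank 78). CTSG, which was not used for the ranking, reached 6.44 times (rank 28), and FTH1 had the largest variance ratio of all at 99.0 times. Counting intervals below are therefore narrower than the spread between cells.

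Protease-high cells were shallower. Their median total was 16516.5 UMIs, with the middle 50% of cells between 12893 and 19739, against 19738 UMIs (16535.5 to 25026) in protease-low cells, and their median gene number was 4780.5, against 5449, and their median MT- share was 9.37%, against 8.72%. A gene was measured when both groups together held 100 or more of its UMIs. Of 8759 measured genes, ranking genes left out, protease-high cells had 99 genes (1.13%) raised by 1.5-fold or more and 342 genes (3.9%) lowered by 1.5-fold or more, sizes that had no replicate check. The median log2 ratio of all genes was -0.11, so that centring on all genes adds 0.11 to each log2 ratio. Every ratio below is the log2 of summed CPM in protease-high over protease-low cells, or in the top over the bottom 25% of SP11 cells, with its 95% counting interval in parentheses. Scaled by TMM factors instead, the same size was reached upwards by 201 genes and downwards by 176. When cells were ranked within 5 bins of total UMIs, 59 of the 99 genes and 166 of the 342 genes were again past 1.5-fold, and the part of depth in the rest was not tested. In the SP11 library 5945 genes were measured, of which 188 (3.16%) were past 1.5-fold upwards and 153 (2.57%) downwards in its top 25%, with a median of 0.07.

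Most measured azurophil granule genes beyond the ranking genes were higher in protease-high cells. Of 15 further genes on the azurophil list, which also holds the intracellular serpin SERPINB10, 7 were measured. Of these 7 genes, 6 were past 1.5-fold upwards, SERPINB10 among them, and 0 downwards, against 1.13% and 3.9% of all genes. Their median log2 ratio was 0.88, or 0.99 relative to the median gene, and their summed level was 1197 CPM in protease-high and 658 CPM in protease-low cells (log2 0.86, 0.80 to 0.93). CTSG, cathepsin G, a serine protease encoded on another chromosome than the ranking genes, had a median of 9 UMIs (0 to 60) in protease-high and 5.5 UMIs (0 to 32) in protease-low cells. The summed levels of CTSG were thus 628 CPM and 322 CPM (log2 0.96, 0.87 to 1.05), and the ranges of single cells overlapped. RNASE2 and RNASE3, secretory ribonucleases with antiviral and antibacterial activity, gave 0.88 (0.60 to 1.17) and 0.93 (0.55 to 1.31), and these paralogs are similar enough for reads to be shared. CFD, complement factor D, lay at 84.4 CPM in protease-high and 44.2 CPM in protease-low cells, a ratio of 0.93 (0.69 to 1.18). LYZ, lysozyme, lay at 330 CPM and 203 CPM with 0.70 (0.59 to 0.82), and SERPINB10, an intracellular serpin, had 62 UMIs and 46 UMIs with 0.73 (0.15 to 1.31). MS4A3, a membrane protein of granulocyte precursors, was just short of 1.5-fold at 0.58 (0.22 to 0.95).

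MPO, the peroxidase of azurophil granules, was not part of this pattern. It had 0 UMIs in protease-high and 1 UMI in protease-low cells. Of the 15 azurophil genes, 5 had 0 UMIs in protease-high cells and 5 in protease-low cells, counted separately. The members thus carried proteases, ribonucleases and lysozyme with almost no RNA for the peroxidase.

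In the SP11 library the azurophil list had a median of 0.79 over 6 measured genes. Of these, 4 were at least 1.5-fold higher, against 3.16% of all genes there. CTSG had 874 UMIs in the top and 440 UMIs in the bottom 25% there, a log2 ratio of 1.29. RNASE3 gave 1.01, MS4A3 0.93 and RNASE2 0.65. CFD did not repeat, with 94 UMIs in the top and 120 UMIs in the bottom 25% (-0.05, -0.46 to 0.35), and LYZ gave only 0.24.

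Genes for packing and for restraining the proteases differed among themselves. SRGN, the serglycin core protein on which granule proteases are stored, had a median of 38 UMIs (2 to 169) in protease-high and 31 UMIs (3 to 115) in protease-low cells, or 2339 CPM and 1602 CPM (log2 0.55, 0.50 to 0.59). SLPI, a secreted inhibitor of elastase and cathepsin G, had 91 UMIs in protease-high and 25 UMIs in protease-low cells, a ratio of 2.16 (1.51 to 2.86). CST7, an inhibitor of the cathepsin that activates granule proteases, gave 0.43 (0.37 to 0.49) and CST3, a secreted cystatin, 0.47 (0.39 to 0.56). SERPINB1, the main cytosolic inhibitor of elastase, gave 0.34 (0.25 to 0.43). CTSC, the dipeptidase that activates the proteases, went the other way at 101 CPM in protease-high and 120 CPM in protease-low cells (-0.24, -0.43 to -0.06). SERPINB2, an inhibitor of plasminogen activators, had 188 UMIs and 366 UMIs (-0.67, -0.93 to -0.41). Of the 12 measured genes of this list, 1 was past 1.5-fold upwards and 1 downwards, beside 1.13% and 3.9% of all genes. The list median of 0.04 became -0.02 without cluster 0. The SP11 library gave 0.84 for SRGN, 0.78 for CST7, 1.22 for SLPI from 17 UMIs and 9 UMIs, and -1.98 for SERPINB2, while CST3 lay at -0.20.

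**Figure D2:**
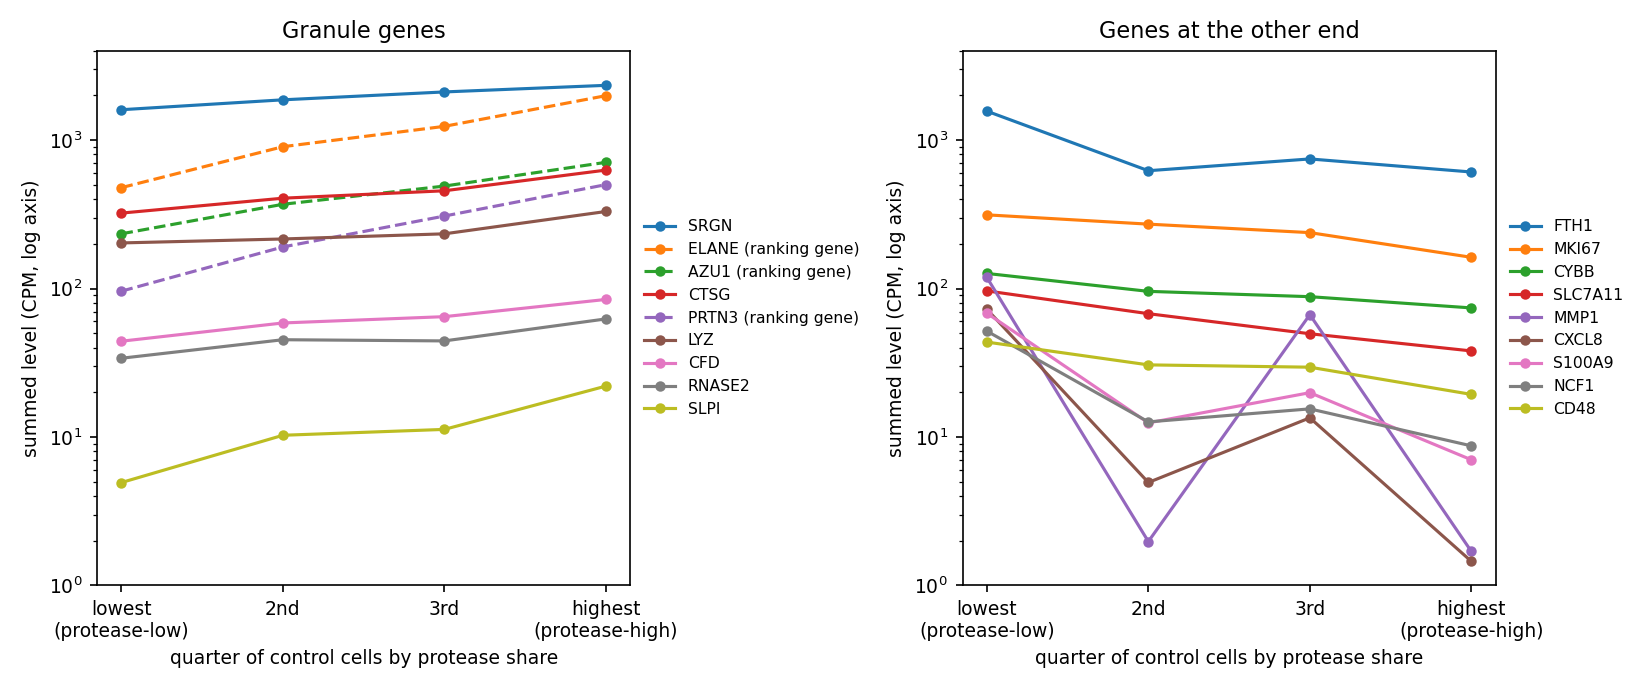
Summed level in CPM on a log axis in 4 rank groups of control cells, lowest share first, for granule genes on the left and for genes at the other end of the comparison on the right; dashed lines are the ranking genes. CTSG lies at 322, 406, 456 and 628 CPM, while MMP1 has 119, 1.97, 66.6 and 1.69 CPM.

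The plot of levels by rank group shows whether a gene followed the ranking step by step. CTSG lay at 322, 406, 456 and 628 CPM from the lowest to the highest of 4 rank groups, and SRGN at 1602, 1868, 2111 and 2339 CPM. CFD (44.2, 58.6, 64.6 and 84.4 CPM) and LYZ (203, 216, 234 and 330 CPM) were likewise ordered. MKI67 descended through 314, 271, 238 and 162 CPM, and CYBB through 126, 95.7, 88.1 and 74.0 CPM. MMP1, CXCL8, S100A9, NCF1 and FTH1 did not descend in steps, and each had a higher level in the third group than in the second. FTH1 lay at 1567, 622, 747 and 610 CPM.

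The position of the ranking genes was examined because AZU1, PRTN3 and ELANE lie side by side between positions 825097 and 856247 of chromosome 19 (GRCh38). Among 32 other genes within 250 kb, 15 were measured, and their median was -0.07. Of these, 1 was past 1.5-fold upwards and 0 downwards, beside 1.13% and 3.9% of all genes. The higher gene was CFD, the next gene after ELANE at chr19:859453-867884, whose end overlaps the opposite-strand gene MED16. MED16, a Mediator subunit, gave -0.38 (-0.88 to 0.11). On the other side PLPPR3, a membrane protein of the lipid phosphatase-related family, gave 0.36 (-0.07 to 0.78) and PTBP1, a splicing repressor, -0.04 (-0.23 to 0.14). PRSS57, another azurophil serine protease, fell short of the UMI minimum with 22 UMIs in protease-high and 11 UMIs in protease-low cells (1.30, 0.19 to 2.49). The other 14 measured genes of the region ran between -0.53 and 0.36.

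Where the higher group held at least 200 UMIs, the 15 highest ratios included 4 azurophil genes, CTSG, CFD, RNASE2 and LYZ. The highest was CXorf21, an adaptor of endolysosomal Toll-like receptor signalling, with 295 UMIs in protease-high and 147 UMIs in protease-low cells (1.30, 1.01 to 1.60). IDI1, the isomerase of isoprenoid synthesis, followed at 166 CPM and 84.0 CPM (0.99, 0.81 to 1.16). LAMP5, a lysosome-associated membrane protein, lay at 227 CPM and 131 CPM (0.79, 0.64 to 0.93). DPM3, a subunit of the enzyme that makes dolichol-phosphate mannose for glycoproteins, gave 0.85 (0.65 to 1.05), and PFKFB4, a regulator of glycolysis, 0.86 (0.60 to 1.13). NREP gave 0.89, PRTG, an immunoglobulin-family membrane protein, 0.87, CACNB4, a calcium channel subunit, 0.73, ZNF248, a zinc finger protein, 0.69, PTPRN2, a phosphatase-like protein of secretory vesicles, 0.68, and AC079466.1 0.68. Of these 15 genes 9 were measured in the SP11 library, 7 above 0 and 2 below 0, where 60.4% of all genes were above 0. LAMP5 gave 1.22 there and NREP 0.94, while AC079466.1 gave -1.60 with 48 UMIs in the top and 179 UMIs in the bottom 25%.

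The 15 lowest ratios were headed by MMP1, CXCL8, S100A9 and NCF1. MARCO, the only measured gene among the monocyte or macrophage markers, went the other way at 0.32. MMP1, interstitial collagenase, had 7 UMIs in protease-high and 603 UMIs in protease-low cells (-6.13, -7.45 to -5.08), but only 17 protease-low cells had any and 5 of them held 543. CXCL8, a chemokine for neutrophils, had 6 UMIs and 368 UMIs (-5.64, -7.1 to -4.51), of which 203 came from 1 protease-low cell. S100A9, a subunit of calprotectin, had 29 UMIs and 346 UMIs (-3.28, -3.88 to -2.73), with 38.2% of the protease-low UMIs in 1 cell. NCF1, a cytosolic subunit of the NADPH oxidase with near-identical pseudogene copies, had 36 UMIs and 262 UMIs (-2.57, -3.11 to -2.06). A UMI of CXCL8 was in 47, of S100A9 in 70 and of NCF1 in 72 of the 240 protease-low cells, and the median cell of each group had 0 UMIs of these 4 genes. FTH1, the ferritin heavy chain, whose processed pseudogenes may share its reads, was present in nearly every cell, with a median of 8 UMIs (0 to 85) in protease-high and 13 UMIs (1 to 725) in protease-low cells. Its summed level was 610 CPM and 1567 CPM (-1.36, -1.43 to -1.30).

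A small set of cells carried most of the MMP1, CXCL8 and S100A9 RNA. The 48 ranked cells with the highest FTH1 share, a set of 5% chosen after the values were seen, held 922 of 952 MMP1 UMIs (96.8%), 380 of 466 CXCL8 UMIs (81.5%) and 349 of 537 S100A9 UMIs (65.0%). These 5% of the ranked cells held 2.92% of the ELANE UMIs, 4.37% of the CTSG UMIs and 10.4% of the LYZ UMIs. Only 8 of the 48 were protease-high and 27 were protease-low, and their median protease share was 0.0917%, against 0.177% in the other ranked cells. With these cells left out and the rest ranked again, MMP1 gave -0.59, CXCL8 -3.06, S100A9 -1.38, NCF1 -1.26 and FTH1 -0.38. FTH1 itself chose the cells left out, so its smaller ratio follows from that choice. CTSG then gave 0.89, LYZ 0.85 and SERPINB10 0.56, the last no longer past 1.5-fold, and the azurophil median was 0.87.

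Other genes at the low end were spread over more cells. SLC7A11, the cystine importer, had 157 UMIs in protease-high and 489 UMIs in protease-low cells (-1.34, -1.61 to -1.08). CD48, a surface receptor of leukocytes, gave -1.17 (-1.56 to -0.80), and MAML2, a Notch coactivator, -1.11 (-1.45 to -0.79). CDC42EP3, an effector of CDC42, gave -1.07, CDK17, a kinase, -0.97, and SLC6A6, the taurine transporter, -0.96. Without the 48 cells SLC7A11 stood at -0.97 and CD48 at -1.13. The mitotic genes DLGAP5 (-1.08), ECT2 (-0.98), MKI67 (-0.95) and CENPE (-0.94) completed the 15. Of these 15 genes, 13 were measured in the SP11 library and all 13 were below 0 there, where 39.6% of all genes were, with MMP1 at -6.33, S100A9 at -3.12, FTH1 at -1.88 and SLC7A11 at -1.15. The mitotic members were near 0 in SP11, with MKI67 at -0.03 and DLGAP5 at -0.13.

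**Figure D3:**
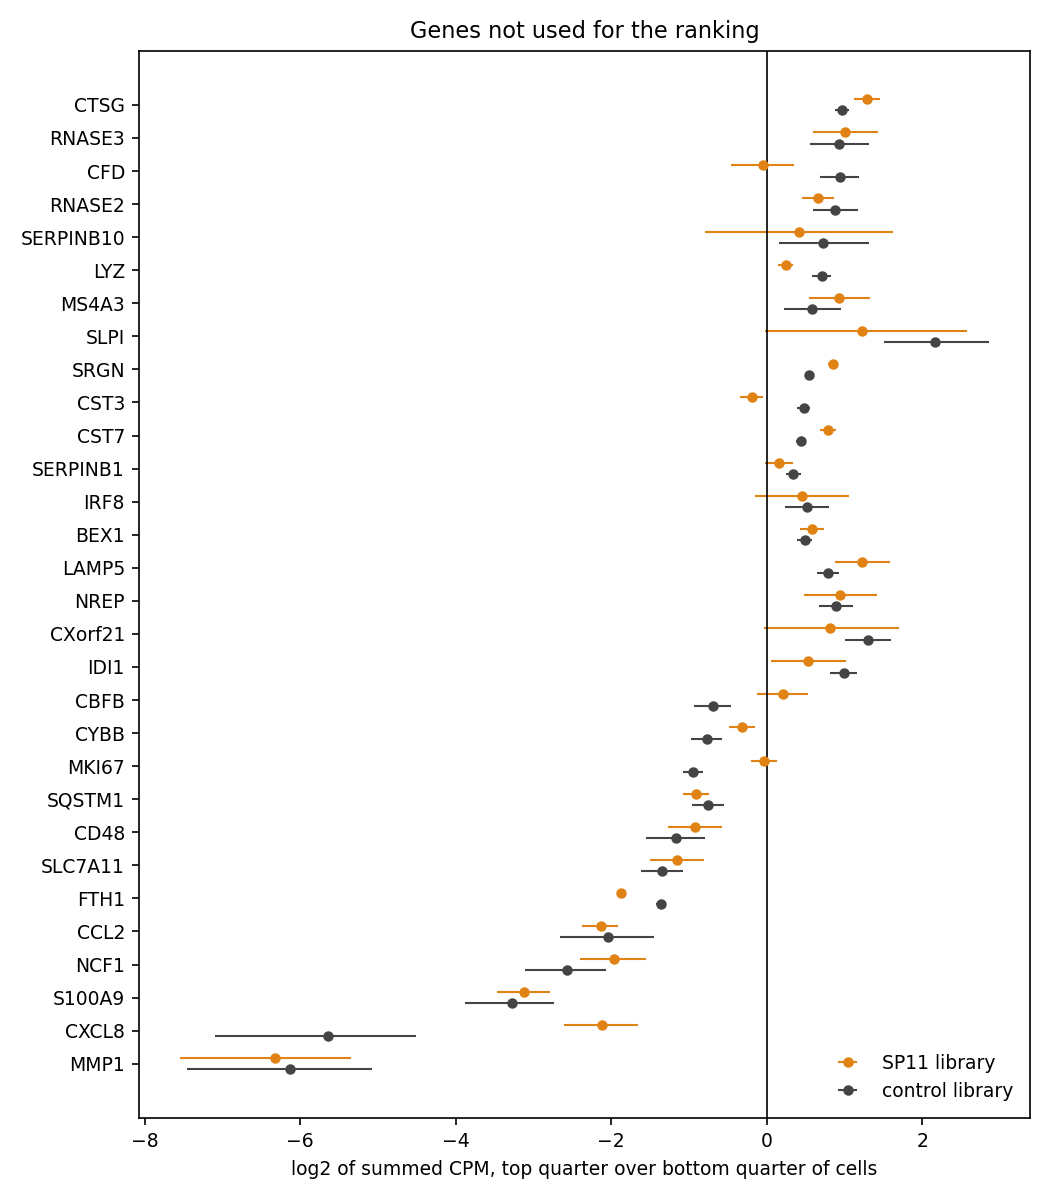
Log2 ratio of summed CPM in the top over the bottom 25% of cells by protease share, for genes not used in the ranking; orange points are the SP11 library, dark points the control library (protease-high over protease-low cells), and bars are 95% counting intervals. CTSG, RNASE3 and SRGN lie above 0 and MMP1, S100A9 and FTH1 below 0 in both libraries, while MKI67 lies at -0.03 in the SP11 and at -0.95 in the control library.

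Few genes of myeloid maturation were measured, and their counts stand beside 1.13% of all genes past 1.5-fold upwards and 3.9% past it downwards. Of 21 secondary and tertiary granule genes, which are made after the azurophil set, 5 were measured, with 0 past 1.5-fold upwards and 1 downwards. The lower gene was CYBB, the catalytic subunit of the phagocyte NADPH oxidase, with 306 UMIs in protease-high and 641 UMIs in protease-low cells (-0.77, -0.97 to -0.57). CYBA, its partner subunit, gave 0.10 (-0.02 to 0.22), LTA4H, the leukotriene hydrolase, -0.09, CHI3L1, a chitinase-like protein, -0.40 (-0.80 to 0.00) and FCN1, a ficolin, 0.01. CHI3L1 turned to 0.68 without the 48 cells of highest FTH1 share. Of 40 monocyte and macrophage maturation genes 7 were measured, 0 past 1.5-fold upwards and 2 downwards, and the list summed to 869 CPM in protease-high and 1184 CPM in protease-low cells (-0.45, -0.51 to -0.39). The median of that list was -0.18, or -0.08 relative to the median gene, and -0.05 without the 48 cells. The 2 lower genes were MMP1 and S100A9, and GPNMB, a glycoprotein of macrophage lysosomes, gave -0.36 (-0.52 to -0.20). Of the 7 measured genes only MARCO was above 0, at 0.32. In the SP11 library 9 genes of that list were measured, with a median of -2.0. Of these, 6 were at least 1.5-fold lower in its top 25%, against 2.57% of all genes there.

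Myeloid progenitor genes and regulators gave no common direction across lists. Of 9 measured progenitor genes, 0 were past 1.5-fold in either direction, and BEX1, an adaptor-like protein, lay at 476 CPM in protease-high and 340 CPM in protease-low cells (0.49, 0.39 to 0.58). CD38, an NAD glycohydrolase, gave 0.49 (0.03 to 0.95) and CSF2RA, the GM-CSF receptor chain, -0.54 (-0.97 to -0.11). CSF3R, the G-CSF receptor that drives neutrophil production, was listed with genes of severe congenital neutropenia and gave 0.55 (0.26 to 0.84), while 0 of the 25 measured genes of that list were past 1.5-fold. Of 25 measured myeloid transcription factor genes, 0 were past 1.5-fold upwards and 3 downwards, beside 1.13% and 3.9% of all genes. Relative to the median gene 1 was past it upwards and 1 downwards. The list median was -0.16, or -0.05 relative to the median gene. IRF8, a regulator of monocyte and dendritic fate, was the highest at 0.52 (0.24 to 0.80). MYB, which keeps precursors immature and acts on granule protease promoters, gave 0.12 (0.02 to 0.22) at 353 CPM in protease-high and 325 CPM in protease-low cells. CEBPA, the granulocyte lineage regulator, gave -0.06 (-0.29 to 0.16), RUNX1 0.02 (-0.11 to 0.15) and SPI1, which encodes PU.1, -0.35 (-0.55 to -0.14). The 3 lower genes were CBFB, the partner of RUNX proteins (-0.70), ID2, an inhibitor of basic helix-loop-helix factors (-0.67), and KLF6, an early response factor (-0.59). CEBPB, active in mature myeloid cells, gave -0.56 (-0.85 to -0.28). In SP11, MYB gave 0.73, CBFB 0.20 and ID2 -0.52.

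Cell cycle calls differed between the groups in the control library. By Seurat's phase scoring, 20% of protease-high cells were called G2M (exact 95% interval 15.1% to 25.6%), against 42.5% of protease-low cells (36.2% to 49.0%). G1 took 42.9% (36.6% to 49.4%) of protease-high and 32.5% (26.6% to 38.8%) of protease-low cells, and S took 37.1% (31.0% to 43.5%) and 25% (19.7% to 31.0%). After every cell was thinned to 4400 UMIs, G2M took 17.9% and 42.5%. The phase calls were made from the same S and G2M genes as these lists, so the levels of these genes are no separate measure. Of 54 G2M genes 20 were at least 1.5-fold lower and 0 higher, against 3.9% and 1.13% of all genes, with a median of -0.53. Relative to the median gene 13 were lower and 0 higher. The G2M list summed to 4941 CPM in protease-high and 7117 CPM in protease-low cells. MKI67, a proliferation antigen of dividing cells, had a median of 1 UMI (0 to 28) in protease-high and 5 UMIs (0 to 39) in protease-low cells. The 43 S genes had 0 past 1.5-fold and a median of -0.06, so the higher share of S calls was not matched by the S genes. MCM5, a helicase subunit of replication, gave 0.43 (0.19 to 0.68), and UHRF1, which maintains DNA methylation, -0.57 (-0.89 to -0.26).

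The 319 cells called G1 had 1929 CPM of the 3 ranking genes, the 319 S cells 1928 CPM and the 325 G2M cells 1629 CPM. The median G2M cell held 31 ranking-gene UMIs of 21925 UMIs, and the median G1 cell 26 of 15757. Ranked within each phase, the G2M list had a median of -0.11, and MKI67 gave -0.40. Of its genes 1 was at least 1.5-fold lower, beside 270 of all genes measured under that ranking. The phases were called from the G2M list, so its smaller ratios follow from ranking within phases. CTSG (0.92), RNASE2 (0.85), SRGN (0.48), FTH1 (-1.49) and MMP1 (-6.40) were about as large within phases, and 174 of the 342 lower genes were again past 1.5-fold.

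In the SP11 library the order was different. G2M was called in 47.4% (40.2% to 54.7%) of its top and 36.5% (29.6% to 43.7%) of its bottom 25%, or 41.1% and 38.5% after thinning to 4400 UMIs. Of 47 measured G2M genes 0 were past 1.5-fold, beside 3.16% of all genes upwards and 2.57% downwards there. The median of these G2M genes was 0.09, against 0.07 for all genes. The lower G2M level of protease-high cells was thus seen in the control library and not in SP11, and whether the libraries differ was not tested.

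**Figure D4:**
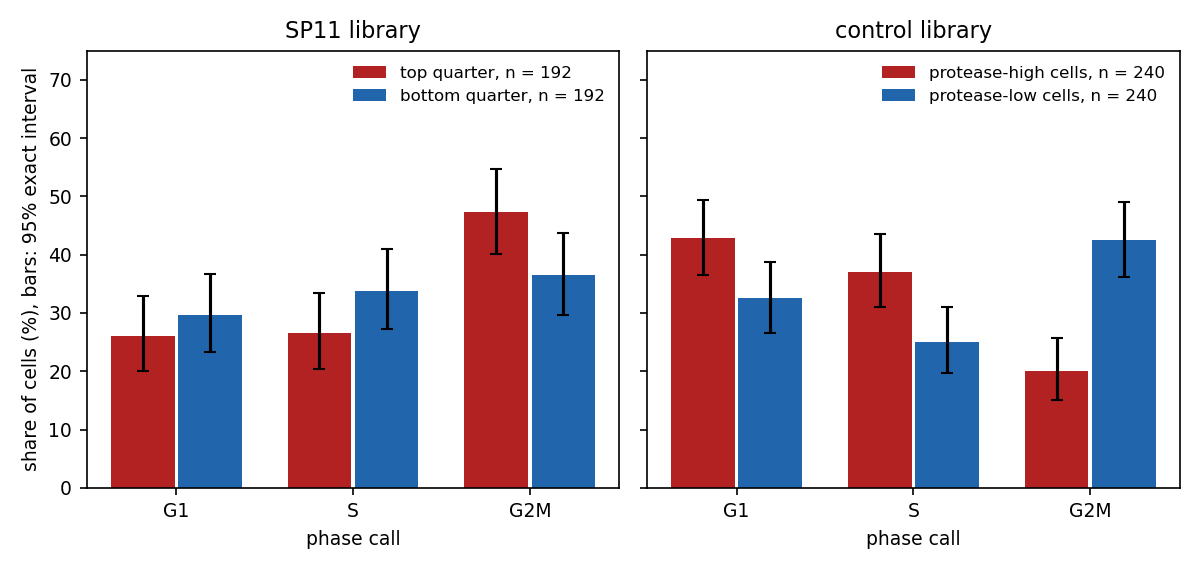
Share of cells called G1, S or G2M in the top and bottom 25% by protease share, in the SP11 library (192 cells each) and the control library (240 protease-high and 240 protease-low cells), with 95% exact intervals as bars. In the control library 20% of protease-high and 42.5% of protease-low cells were called G2M, and in SP11 47.4% of the top and 36.5% of the bottom 25%.

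Metabolic lists moved little, and most by less than 1.5-fold. Of all genes 1.13% were past 1.5-fold upwards and 3.9% downwards. Sterol synthesis, which supplies cholesterol and dolichol, had 20 of 22 measured genes above 0, 2 at least 1.5-fold higher and a median of 0.22, and it summed to 2182 CPM in protease-high and 1829 CPM in protease-low cells (0.25, 0.21 to 0.30). The genes past 1.5-fold were IDI1 and STARD4, a cholesterol carrier (0.60, 0.24 to 0.97), and CYP51A1, lanosterol demethylase, gave 0.39 (0.20 to 0.59). SCD, the stearoyl-CoA desaturase, was the only fatty acid gene past 1.5-fold, at 323 CPM and 210 CPM (0.62, 0.50 to 0.74). In SP11 the sterol list had a median of 0.07, equal to that of all genes. Of 18 measured glycolysis genes 0 were higher and 1 lower, HK1, hexokinase (-0.60, -0.87 to -0.34), and GAPDH gave 0.14 (0.09 to 0.18). Relative to the median gene 0 glycolysis genes were past 1.5-fold. Of 23 TCA cycle genes and 26 nucleotide synthesis genes 0 were past 1.5-fold. MTHFD1L, of mitochondrial folate metabolism, gave -0.47 (-0.58 to -0.37).

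Protein synthesis and respiration differed by small but broad steps. Of 82 measured cytosolic ribosomal protein genes 77 were above 0, 0 were past 1.5-fold and the median was 0.19, and they made up 200443 CPM of protease-high and 174958 CPM of protease-low cells. Nuclear respiratory chain genes had 69 of 81 above 0 and a median of 0.17, with NDUFB5, a complex I subunit, at 0.44 (0.22 to 0.66). The 13 MT- genes had a median of 0.09. In SP11 these medians were -0.01, -0.03 and -0.06. Protease-high cells also had fewer UMIs, and with cells ranked within 5 bins of total UMIs the control medians were 0.15, 0.15 and 0.08. Of 34 measured ribosome biogenesis genes 2 were past 1.5-fold downwards, beside 3.9% of all genes, with a median of -0.18. After centring on all genes 0 were past it and the list median was -0.07. The lowest was MYBBP1A, a nucleolar protein (-0.67). Genes of the secretory pathway, through which granule proteins enter the endoplasmic reticulum, had 25 of 35 above 0, 0 past 1.5-fold and a median of 0.12, and the SP11 median was 0.18. SSR4, a translocon-associated subunit, gave 0.46 (0.35 to 0.56) and PDIA6, a disulfide isomerase, 0.35 (0.25 to 0.46).

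Stress and inflammatory lists are given beside the 1.13% of all genes past 1.5-fold upwards and the 3.9% past it downwards, since all genes leaned the same way. In SP11 these shares were 3.16% and 2.57%. Of 11 measured NF-kB target and chemokine genes 0 were higher and 5 lower, with a median of -0.56, and in SP11 0 of 10 were higher and 5 lower, with a median of -0.61. CCL2, a monocyte chemokine, had 29 UMIs in protease-high and 146 UMIs in protease-low cells (-2.04, -2.66 to -1.45), and NFKB1 itself lay at -0.01. The median of this list was 0.00 among G1 cells alone and -0.15 without the 48 cells of highest FTH1 share. Of 16 measured NRF2 and iron genes 4 were at least 1.5-fold lower, namely FTH1, SLC7A11, SQSTM1, an autophagy receptor (-0.76, -0.96 to -0.56), and GCLM, a subunit of the enzyme for glutathione synthesis (-0.73, -1.06 to -0.41), and SP11 had 5. GCLM lay at 0.21 in SP11. FTL, the ferritin light chain, gave -0.53 in SP11 and 0.03 (0.01 to 0.05) in control, and FTL and GCLM are named here after their values were seen. The 30 measured ATF4 and tRNA synthetase genes had a median of -0.30 with 3 lower, or -0.19 with 2 lower and 1 higher relative to the median gene, and SP11 had a median of 0.14. Of 18 measured HSF1 heat shock genes 2 were lower, HSPH1 (-0.84, -1.03 to -0.65) and STIP1 (-0.63, -0.85 to -0.41), both cochaperones, or 1 lower relative to the median gene, and the SP11 ratios were 0.00 and 0.20. All 10 measured BCL2 family genes lay below 0 with 0 past 1.5-fold, from BCL2A1, an inducible survival factor (-0.11), to BAX, a pore former of the mitochondrial membrane (-0.49), and BCL2A1 was level with the median gene. Replication-dependent histones had 9 measured genes, all below 0, with 1 past 1.5-fold, HIST1H1B, a linker histone (-0.70), and HIST1H4C, a core histone, at -0.32. Ranked within 5 bins of total UMIs, the histone median was -0.06, and HIST1H4C turned to 0.09 and HIST1H3B, another core histone, to 0.20.

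**Figure D5:**
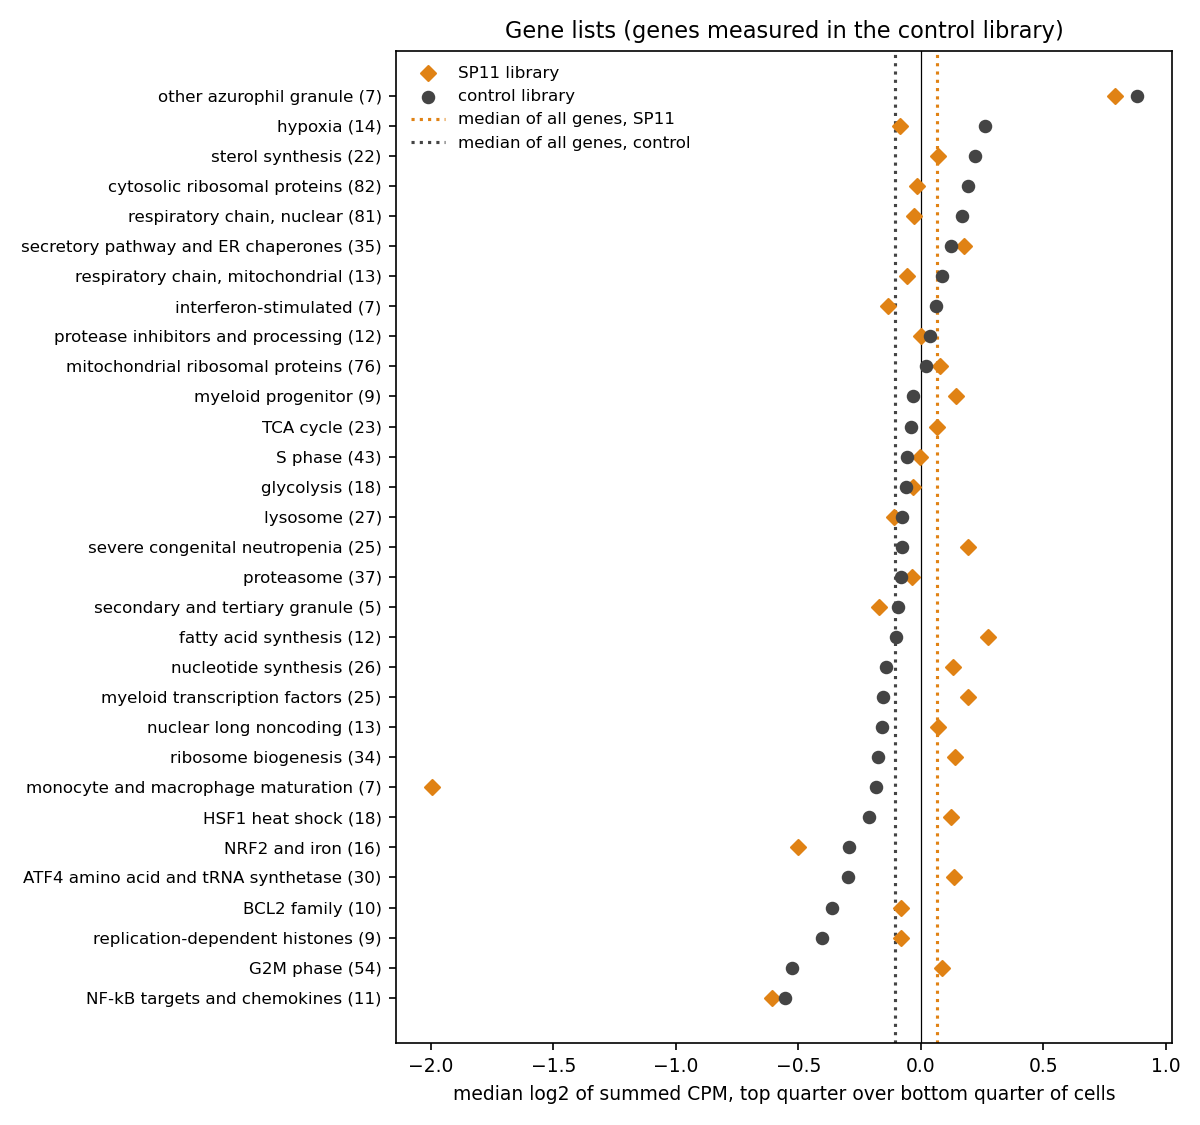
Median log2 ratio of each gene list with 5 or more measured genes in the control library, top over bottom 25% by protease share, for the SP11 library (diamonds) and the control library (circles); the number of genes measured in control is in parentheses, the genes measured in SP11 can differ, and dotted lines are the medians of all genes. The azurophil list stands at 0.79 and 0.88, and the G2M list at 0.09 in SP11 and -0.53 in control.

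The interferon-stimulated (7 measured genes), lysosome (27), nuclear long noncoding RNA (13), mitochondrial ribosomal protein (76) and proteasome (37) lists had 0 genes past 1.5-fold. Of all genes 1.13% were past it upwards and 3.9% downwards. BST2, a membrane tether of viruses, gave 0.46 (0.31 to 0.60), CD63, a tetraspanin of lysosomes and azurophil granules, 0.48 (0.35 to 0.61), NPC1, a lysosomal cholesterol exporter, -0.56 (-0.77 to -0.35) and NEAT1, a scaffold RNA of paraspeckles, 0.28 (0.23 to 0.33). CD63 and NEAT1 lay at -0.38 and -0.42 in SP11.

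Hypoxia genes had a median of 0.26 over 14 measured genes, with P4HA1, a collagen prolyl hydroxylase, at 0.66 (0.44 to 0.87), but the median was -0.10 when the cells were ranked without AZU1. Among the genes that the study followed, MYC, a driver of growth, lay at 115 CPM in protease-high and 135 CPM in protease-low cells (-0.24, -0.41 to -0.07), and BCL2, a survival factor, at 83.0 CPM and 96.0 CPM (-0.21, -0.41 to -0.01). BMI1, a Polycomb protein, gave -0.19 (-0.30 to -0.07) and CD44, an adhesion receptor, -0.50 (-0.70 to -0.31). HSP90AA1 and HSP90AB1, the cytosolic HSP90 genes, gave -0.16 (-0.22 to -0.10) and -0.04 (-0.07 to 0.00). In the SP11 library BCL2 was higher in the top 25%, with 102 UMIs against 77 UMIs in the bottom 25% (0.71, 0.27 to 1.15), BMI1 gave 0.56, MYC 0.12, CD44 -0.23, HSP90AA1 0.15 and HSP90AB1 0.02. Whether the libraries differ in these genes was not tested.

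Clusters did not separate the members. Seurat split the ranked control cells into 6 clusters, and protease-high cells were in each of them, at 94 of 280 cells in cluster 0, 70 of 234 in cluster 1, 41 of 219 in cluster 2, 24 of 130 in cluster 3, 10 of 96 in cluster 4 and 1 of 4 in cluster 5. Protease-low cells numbered 64, 44, 62, 38, 30 and 2 in the same clusters. Cluster 0, led by TDO2, SPP1 and CCL4 relative to the other clusters, was the largest, and 33.6% of its cells were protease-high and 22.9% protease-low. Its leading genes come from summed UMIs and need not mark most of its cells. The 48 cells of highest FTH1 share held 123 of 125 SPP1 UMIs, and 27 of them were in cluster 0. In cluster 4 the shares were 10.4% and 31.3%.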

How the data were processed

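Single-cell RNA-seq was measured in 1 SP11 and 1 control library. The authors deposited unnormalized UMI counts per gene and barcode, made with Cell Ranger 7.1.0 per the file headers, and the submitters' processing notes name GRCh38. The handling of intron reads was not given in the sources read. Of 1076 control barcodes 1053 passed 200 genes and 20% MT- UMIs, and 90 of these had under 4400 UMIs. The study kept fewer control cells, by a step not given in the sources used here. Scrublet in scanpy 1.11.5 called 45 control and 21 SP11 doublets, which were kept.

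Cells were ranked by protease share with ties broken by barcode, and UMIs were summed per group of 25%. Log2 ratios are of CPM, with 95% Clopper-Pearson bounds on how UMIs divided between the groups, and shares of cells carry exact binomial intervals. A gene was measured with 100 or more UMIs over both groups, and 1.5-fold was used as a size and not as a test. Phases (43 S and 54 G2M genes) and clusters (10 principal components, resolution 0.5) came from Seurat 5.3.0 in R 4.3.3, in each library alone. The interval code was tested on simulated data. Promoter sequences came from RefSeq on GRCh38.p14, where 4 of the symbols sought matched, and positions from GENCODE 44.

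Genes named are the ranking genes, the 15 highest and 15 lowest ratios with 200 or more UMIs in the higher group, members of the granule, inhibitor and transcription factor lists at 10 CPM or more, up to 3 genes from each end of the other lists, genes within 250 kb of the ranking genes, and 6 genes of the study. The members, the 44 lists and this rule were chosen with earlier results of these data known. Alternatives were TMM (edgeR 4.0.16) and DESeq2 1.42.0 scaling, other totals, filters, thresholds, rankings and phase scorings. Leaving out cluster 0, G1 cells alone and leaving out the 5% of cells highest in FTH1 share were alternatives chosen after seeing the data.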

Additional observations from a re-analysis of the deposited data

Results flagged for a closer look

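In the control barcodes with under 4400 UMIs, which no comparison uses, ELANE, AZU1 and PRTN3 together lay at 1525 CPM (176 of 115424 UMIs in 90 barcodes, 95% interval 1308 to 1767), above the 26 CPM that a count of 0 allows and beside 1812 CPM in the ranked cells. AC079466.1 was lower in the top than in the bottom 25% of SP11 cells (log2 -1.60) and higher in that of control cells (0.68), and the difference between the libraries was not tested. The phase shares went opposite ways in the libraries. The G2M share of the top 25% minus that of the bottom 25% was 10.9 percentage points in SP11 and -22.5 in control, the G1 difference was -3.65 in SP11 and 10.4 in control, and the S difference was -7.29 in SP11 and 12.1 in control. These differences between libraries were not tested, and on cells thinned to 4400 UMIs the top and bottom 25% of SP11 had 41.1% and 38.5% G2M cells and 33.3% and 28.1% G1 cells, an order of G1 shares the other way round from the unthinned calls.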

How the results depend on the processing

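The 99 genes at least 1.5-fold higher became 201 with TMM and 201 with DESeq2 factors, 3202 with no minimum beyond 1 UMI, 22 with 400 or more UMIs, 152 at a smaller fold with 400 or more UMIs, 54 when ranked after thinning, 61 between the top and bottom 50%, 59 ranked without AZU1 and 186 ranked without ELANE. The 342 lower genes became 176 and 174 with those factors, 4607 with no minimum, 90 with 400 or more UMIs, 635 at the smaller fold, 197 after thinning, 635 between the top and bottom 10%, 96 between the top and bottom 50%, 211 within 5 bins of UMIs and 217 without cluster 0. The G1 share of protease-high cells became 34.5% at an MT- maximum of 10%, 35.8% ranked without AZU1, 50.4% with thinned scoring and 13.5% without cluster 0, and that of protease-low cells 25.8% ranked without ELANE and 15.3% without cluster 0. The S share of protease-high cells became 54.7% without cluster 0 and that of protease-low cells 31.3% without ELANE. The G2M share became 26.3% (MT- 10%), 26.4% (top and bottom 50%) and 31.8% (without cluster 0) in protease-high and 55.3% (without cluster 0) in protease-low cells. The causes were not tested, apart from fewer or more genes or cells entering. CTSG ran between 0.55 and 1.56 over its 21 alternatives and the azurophil median between 0.44 and 1.17. All 1092 alternative values of the 52 named genes past 1.5-fold kept their sign, and 912 stayed past it. No paired analysis was possible because each condition has 1 library. Cells with few UMIs limit single-cell shares, and the counting intervals leave out the spread between cells.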
